A study of Mus musculus with 14 samples.

Results

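The genes of the oligodendrocyte lineage and of myelin were followed through a fast in the mouse hypothalamus, which governs feeding. The set holds 34 gene symbols, known markers of this lineage, that were chosen with earlier results of these data known. Of these, 30 were measured by a probe set that names only that gene, out of 17097 genes tested in all. They cover 1 of 2 precursor genes, 3 of 4 genes of differentiating cells, 4 of 5 transcription factors, 19 of 20 genes of mature myelin and 3 of 3 enzymes of myelin lipids. Cspg4, Bcas1, Myrf and Enpp2 were not matched to a probe set by symbol and were not analysed here.

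RNA came from whole hypothalami of mice 12 weeks old on a mixed background of C57Bl/6J, FVB/N and 129, and was hybridised to 14 Affymetrix arrays, with 150 ng of RNA per sample. Control mice gave 4 fed and 3 fasted arrays, and POMCMfn1KO mice likewise 4 fed and 3 fasted arrays. Fed mice are labelled random fed, and fasted mice were without food for 16 h. POMCMfn1KO, called knockout below, names a deletion of the mitochondrial fusion gene Mfn1 aimed at neurons that express pro-opiomelanocortin, a small population. Other cell types are not its target by that name, and whether it is limited to these neurons cannot be read from these arrays. The labels name neither the driver of the deletion nor the alleles of the controls. Nor do they state that each array is a separate mouse, and the p-values therefore reflect only how these samples vary. Values are log2 expression after RMA, and probe sets without a target, which mark the background, had a median of 3.64.

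Oligodendrocytes are the cells that wrap axons in myelin. They arise from dividing precursors that carry the receptor Pdgfra, pass through a premyelinating stage marked by Gpr17, and then switch on the structural proteins and the lipid enzymes of the myelin sheath. Transcription factors such as Olig2 and Sox10 act throughout the lineage. Precursors and mature cells both persist in the adult hypothalamus, where new oligodendrocytes are still made in the median eminence.

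Before the members, some facts of the arrays bear on every value. The sample numbers in the titles form a low and a high series, the low one holding all 6 fasted arrays and knockout fed replicate 1, and the high one the other 7 fed arrays. The fast and this number series therefore nearly coincide, and in control mice they cannot be told apart. Control fed replicate 1 stood apart by a high score of cortex and hippocampus markers (0.80, mean log2 deviation) and a low score of hypothalamic markers (-0.56), and knockout fed replicate 4 by a cortex score of 0.49. Knockout fasted replicate 2 stood apart by a low score of thalamus markers (-0.26). The choroid plexus score ran from -1.26 to 0.67 on control and from -1.20 to 1.46 on knockout arrays, with knockout fed replicate 1 the lowest of the latter. All 13 choroid plexus markers were higher in knockout than in control mice, by a median of 1.085 in fed and 1.27 in fasted mice. None of them passed, but genotype and this score are partly tied on these arrays. RNA quality, read as the 3' minus 5' difference of the Actb controls, ranged from 0.77 to 0.94. Mfn1 itself differed by 0.01 ± 0.03 (SE) between genotypes, which does not check the labels, since the deletion is aimed at few cells.

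After the fast, some genes of mature oligodendrocytes were lower, a pair was higher, and the main structural genes Mbp, Mag, Mog and Cnp did not pass the test. Averaged over both genotypes (6 fasted against 8 fed arrays), Opalin, Ugt8a, Pllp, Car2, Ninj2, Fa2h, Ermn and Qdpr fell, and Cldn11 and Mobp rose. That makes 10 of the 30 measured members, or 33.3%, at an adjusted p under 0.05 in limma, against 10% of all genes tested. Lower calls were 8 of 30 (26.7%) against 4.90% of all genes. Higher calls were 2 of 30 against 5.14%, a share near that of all genes. Since the members were chosen with earlier results of these data known, these shares are a description only. The median difference of the 30 members was -0.19 (log2), and that of all genes 0.003. In 9 of the 20 members that did not pass, the estimate lay within 0.10 of 0. In bulk RNA, fewer cells of a type and less RNA per cell cannot be told apart.

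**Figure D1:**
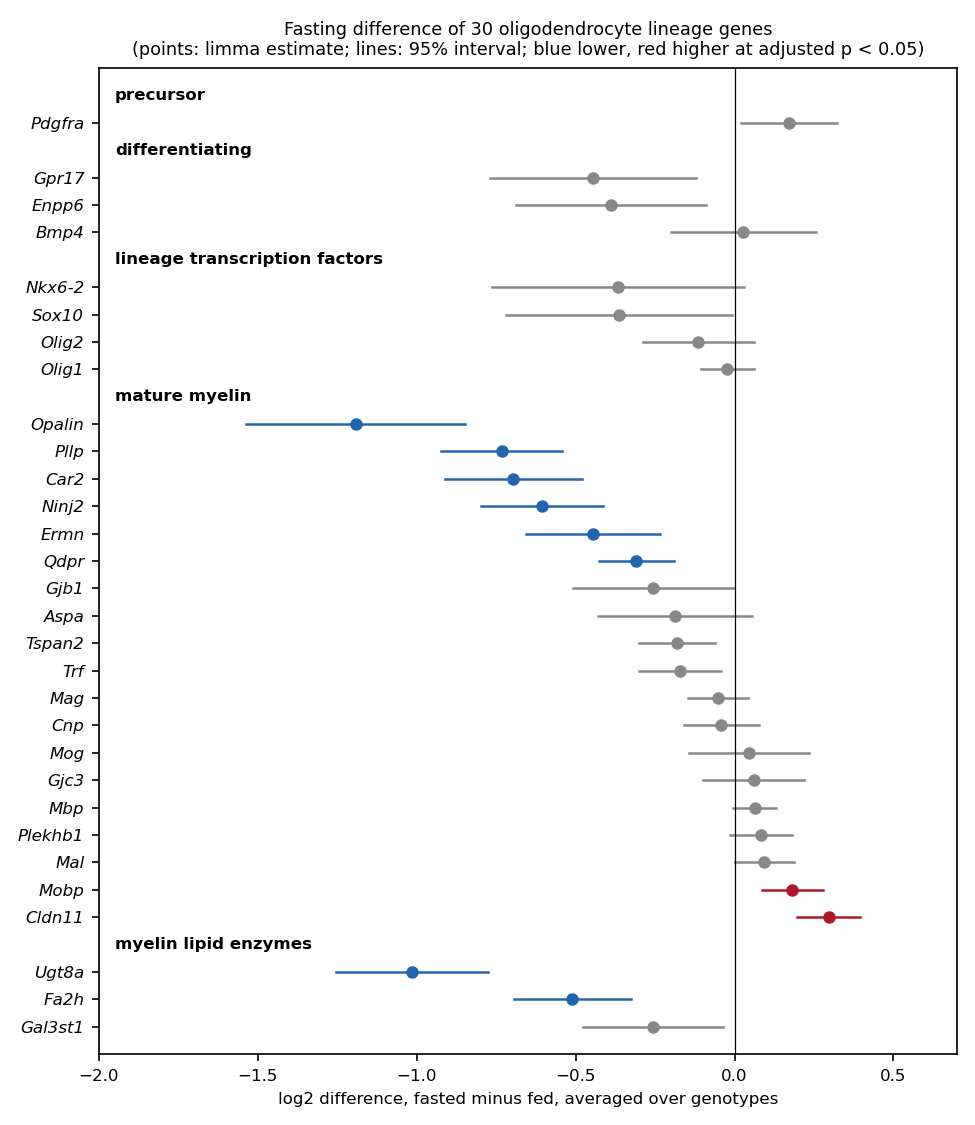
Log2 difference between fasted and fed arrays, averaged over genotypes, of the 30 measured genes by stage; points are limma estimates and lines 95% intervals. Opalin (-1.19) and Ugt8a (-1.01) lie farthest to the left, Cldn11 (0.30) farthest to the right, and Mbp, Mag, Mog and Cnp close to 0.

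Of the 3 enzymes of myelin lipids, 2 fell. Ugt8a encodes the transferase that makes galactosylceramide, the defining lipid of myelin. It was at 10.61, 10.81, 10.75 and 10.67 on the control fed arrays, 9.67, 9.73 and 9.63 on control fasted, 10.67, 10.55, 10.64 and 10.70 on knockout fed and 9.77, 9.10 and 10.06 on knockout fasted arrays. All 6 fasted arrays were below all 8 fed arrays. The difference was -1.01 ± 0.11 (SE), or 0.495 of the fed level on the linear scale (limma, adjusted p = 0.000185). Fa2h encodes the hydroxylase that supplies 2-hydroxylated fatty acids to that lipid. Its values were 8.75, 8.88, 8.74 and 8.87 (control fed), 8.14, 8.48 and 8.32 (control fasted), 8.81, 8.72, 8.79 and 8.97 (knockout fed) and 8.22, 8.04 and 8.64 (knockout fasted). These groups did not overlap either, and Fa2h fell by 0.51 ± 0.09 (adjusted p = 0.00318). Gal3st1, which sulfates galactosylceramide to sulfatide, was at -0.26 ± 0.10 and did not pass (adjusted p = 0.131), with fed arrays at 7.28 to 7.62 and fasted arrays at 6.73 to 7.52.

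Among genes of mature oligodendrocytes, Opalin had the largest difference. It encodes a small transmembrane protein that oligodendrocytes make late in the lineage. Its values were 9.27, 8.91, 9.14 and 9.28 on control fed, 7.90, 7.59 and 7.53 on control fasted, 9.43, 9.01, 8.89 and 9.06 on knockout fed and 8.25, 7.53 and 8.79 on knockout fasted arrays. Every fasted array was below every fed one, although knockout fasted replicate 3 came within 0.10 of the lowest fed value. Opalin fell by 1.19 ± 0.16, to 0.438 of the fed level (adjusted p = 0.00082). Pllp encodes plasmolipin, a proteolipid of compact myelin. It was at 9.37, 9.35, 9.38 and 9.55 (control fed), 8.58, 8.40 and 8.61 (control fasted), 9.52, 9.27, 9.36 and 9.32 (knockout fed) and 8.77, 8.45 and 9.13 (knockout fasted). Again the fed and fasted arrays did not overlap, and the fall was 0.73 ± 0.09 (adjusted p = 0.000386).

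Opalin, Ugt8a and Pllp were the members with the largest falls that have an entry in the RefSeq promoter table of GRCm38.p6, and the 250 bases before their starts are shown to set these promoters side by side. Opalin lies at chr19:41077114-41077363, Ugt8a at chr3:125938653-125938902 and Pllp at chr8:94696243-94696492, all on the minus strand and written 5′ to 3′ along the gene. Capitals mark matches, on either strand, to the SOX motif ACAAAG, the OLIG E-box CAGCTG, the glucocorticoid receptor half-site AGAACA and the FOXO motif GTAAACA.
Opalin: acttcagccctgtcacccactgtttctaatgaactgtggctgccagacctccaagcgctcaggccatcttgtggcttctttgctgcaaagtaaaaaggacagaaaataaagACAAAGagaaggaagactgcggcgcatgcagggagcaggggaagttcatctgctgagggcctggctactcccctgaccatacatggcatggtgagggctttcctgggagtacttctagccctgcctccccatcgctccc
Ugt8a: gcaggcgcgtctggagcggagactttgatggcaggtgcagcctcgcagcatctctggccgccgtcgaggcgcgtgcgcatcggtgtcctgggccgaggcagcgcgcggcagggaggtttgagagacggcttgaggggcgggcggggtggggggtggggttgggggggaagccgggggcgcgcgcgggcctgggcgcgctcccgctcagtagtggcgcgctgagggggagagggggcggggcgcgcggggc
Pllp: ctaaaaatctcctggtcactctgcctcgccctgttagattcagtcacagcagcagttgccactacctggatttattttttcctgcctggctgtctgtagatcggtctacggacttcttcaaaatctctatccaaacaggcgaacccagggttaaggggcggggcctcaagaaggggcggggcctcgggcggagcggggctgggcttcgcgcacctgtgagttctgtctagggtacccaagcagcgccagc
The 3 windows hold a single match, to the SOX motif, 139 bases before the start of Opalin. Of all 32851 promoter windows of this length, 16.5% hold the SOX motif, 13% the E-box, 16.1% the half-site and 3.17% the FOXO motif. Over the 8 members that fell, 6 have a promoter in the table, of which 1 holds the SOX motif, 1 the E-box and 0 the half-site or the FOXO motif. Over the other 22 measured members, 17 have 26 promoters in the table, of which 8 hold the SOX motif, 1 the E-box, 3 the half-site and 0 the FOXO motif. A match is a description of letters only, and a missing match says nothing of the factor.

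Car2, Ninj2, Ermn and Qdpr were the other mature genes that fell. Car2 encodes the cytosolic carbonic anhydrase of these cells. It was at 11.74, 11.70, 11.70 and 11.69 (control fed), 10.85, 11.09 and 10.73 (control fasted), 11.58, 11.67, 11.67 and 11.63 (knockout fed) and 11.19, 10.60 and 11.40 (knockout fasted). The fed arrays span only 0.16 and all lie above the fasted arrays, which span 0.80. The difference was -0.70 ± 0.10 (adjusted p = 0.00126). Red blood cells also make carbonic anhydrase. Of 3 red blood cell markers measured, none passed, and all 3 had a negative difference (Hba-a1 at -0.18 ± 0.15). The part of blood in the Car2 difference was not tested.

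Ninj2 encodes the adhesion protein ninjurin 2. It is dim, with a mean of 5.29 over all arrays and 4.76 on knockout fasted arrays, against a background median of 3.64. Its values were 5.46, 5.45, 5.80 and 5.52 (control fed), 4.93, 5.13 and 5.32 (control fasted), 5.61, 5.42, 5.47 and 5.66 (knockout fed) and 4.74, 4.51 and 5.02 (knockout fasted). It fell by 0.61 ± 0.09 without overlap (adjusted p = 0.00148). Ermn encodes ermin, an actin-binding protein of the cytoplasmic rim of the sheath. It was at 9.50, 9.55, 9.66 and 9.40 (control fed), 8.95, 9.27 and 9.02 (control fasted), 9.52, 9.42, 9.46 and 9.60 (knockout fed) and 9.09, 8.66 and 9.42 (knockout fasted). Here knockout fasted replicate 3 reached the fed range, so Ermn was the 1 member among the 8 that fell whose fed and fasted arrays touch. Its fall was 0.45 ± 0.10 (adjusted p = 0.0134). Qdpr encodes dihydropteridine reductase, which regenerates the cofactor tetrahydrobiopterin. It was at 11.33, 11.49, 11.63 and 11.50 (control fed), 11.16, 11.12 and 11.14 (control fasted), 11.62, 11.48, 11.47 and 11.33 (knockout fed) and 11.22, 11.11 and 11.28 (knockout fasted), a fall of 0.31 ± 0.06 without overlap (adjusted p = 0.00432).

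In all, 7 of the 30 members had every fasted array below every fed array, against 1.49% of all genes. Only 1 had every fasted array above, against 1.92%, which is near the share of all genes.

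That 1 member was Cldn11, which encodes the claudin of the tight junctions between myelin layers. It was at 9.53, 9.49, 9.40 and 9.37 (control fed), 9.70, 9.82 and 9.86 (control fasted), 9.39, 9.46, 9.33 and 9.51 (knockout fed) and 9.59, 9.67 and 9.75 (knockout fasted). Cldn11 rose by 0.30 ± 0.05, or 1.23 times the fed level (adjusted p = 0.00206). Mobp, a basic protein of compact myelin, was at 11.37, 11.46, 11.44 and 11.41 (control fed), 11.56, 11.71 and 11.62 (control fasted), 11.53, 11.34, 11.40 and 11.44 (knockout fed) and 11.58, 11.48 and 11.68 (knockout fasted). It rose by 0.18 ± 0.04 (adjusted p = 0.0219). Its fed and fasted ranges overlap through knockout fed replicate 1 and knockout fasted replicate 2.

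**Figure D2:**
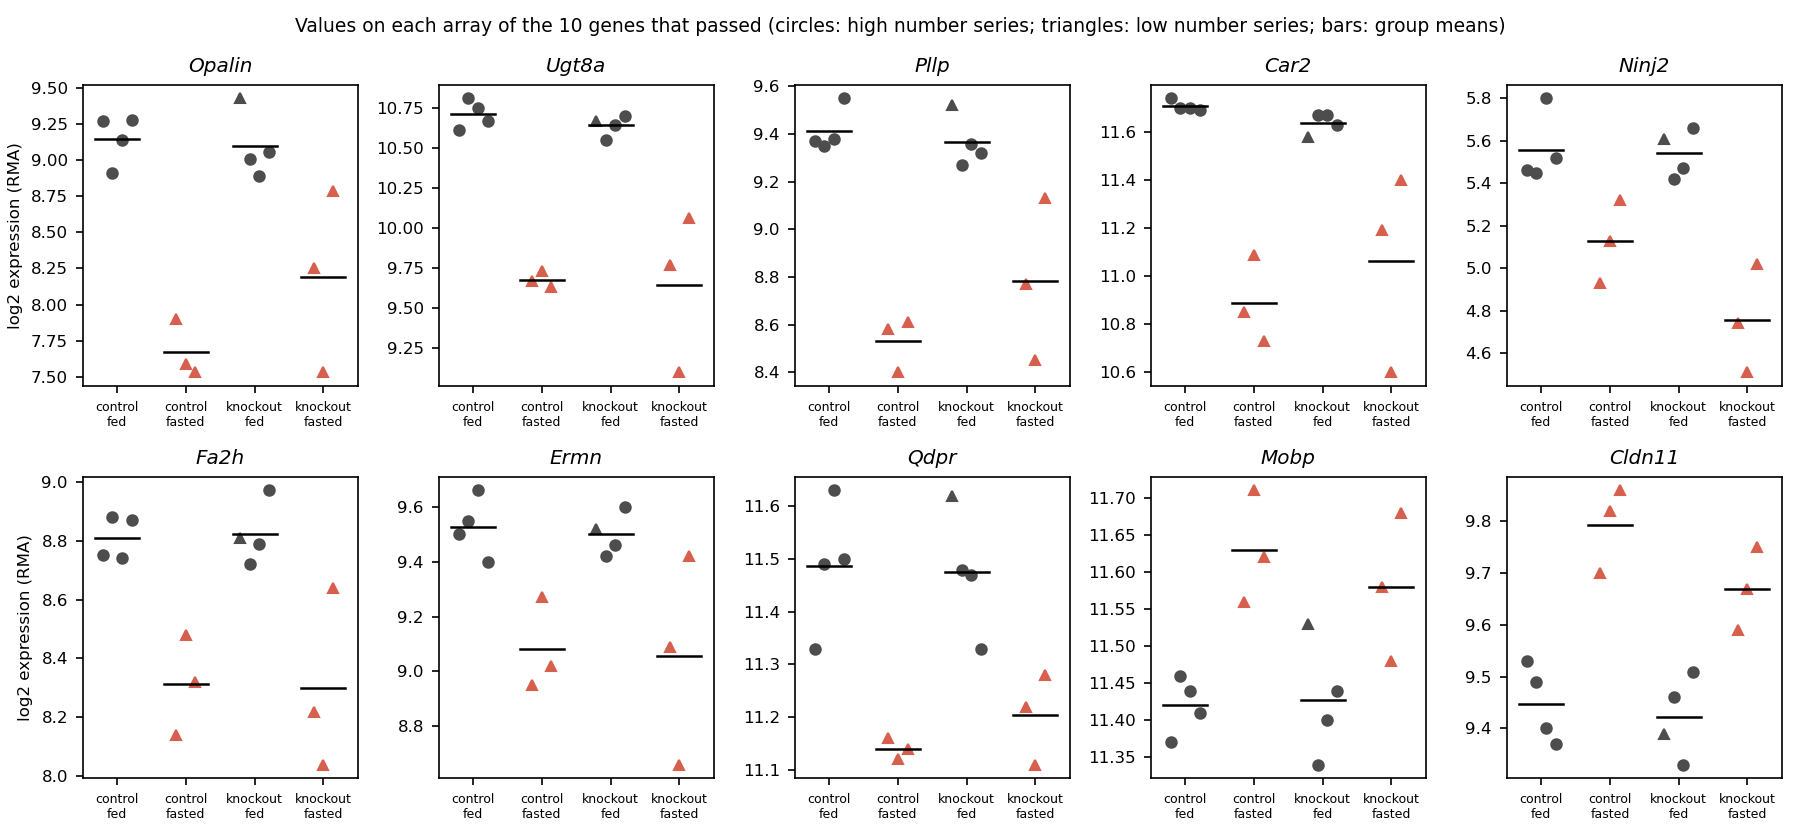
Log2 expression of the 10 genes that passed, by group; each point is 1 array, circles are arrays of the high number series, triangles those of the low series and bars group means. Knockout fed replicate 1, the only fed triangle, lies above all fasted arrays in each of the 8 genes that fell.

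The other mature genes did not pass. Mbp encodes the main cytoplasmic protein of compact myelin and ran from 12.90 to 12.99 on fed and from 12.97 to 13.03 on fasted arrays. The difference of this probe set, the brighter of the Mbp probe sets, was 0.06 with a 95% interval of -0.004 to 0.13. Mag, the adhesion protein that faces the axon, was at -0.05 (-0.15 to 0.04), and Cnp, the phosphodiesterase of the cytoplasmic channels of myelin, at -0.04 (-0.16 to 0.08). Mog, on the outer face of the sheath, was at 0.05 (-0.14 to 0.23). Mal, a raft proteolipid, was at 0.09 (0.000 to 0.19), and Plekhb1 at 0.08 (-0.01 to 0.18). None of these 6 intervals reaches beyond 0.23 in either direction, which does not show that the levels were equal.

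Gjb1, the connexin that joins myelin layers, was at -0.26 ± 0.12 (adjusted p = 0.188), and Gjc3, another oligodendrocyte connexin, at 0.06 ± 0.07 (adjusted p = 0.659). Aspa, which splits N-acetylaspartate to supply acetate, was at -0.19 ± 0.11 (adjusted p = 0.322). Tspan2, a tetraspanin of early myelination, came close to the threshold with -0.18 ± 0.06 (adjusted p = 0.0532), as did Trf, the iron carrier transferrin, with -0.17 ± 0.06 (adjusted p = 0.0885). Aspa ranged from 8.66 to 9.60 on fasted arrays and only from 9.19 to 9.50 on fed ones.

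Several members have more than 1 probe set, and these did not always move together. Over the 46 probe sets of the 30 members, fitted with every probe set on its own, 15 passed, 10 lower and 5 higher, against 8.65% of all probe sets. This fit was added after the data were seen. Both probe sets of Ugt8a fell, by 1.01 ± 0.11 and 1.14 ± 0.12. For Mobp, 3 of 4 rose, by 0.18, 0.32 and 0.65 (adjusted p of 0.027, 0.00388 and 0.000358), so the brightest probe set, on which the call above rests, gave the smallest of these. The second probe set of Opalin was near background at a mean of 4.27 and stood at 0.03 ± 0.09, and the mean of both was -0.58. Tspan2 had its brightest probe set at -0.18, another at 0.10 ± 0.05 and the dimmest fell by 0.43 ± 0.09 (adjusted p = 0.00876). The second probe set of Mal rose by 0.19 ± 0.05 (adjusted p = 0.0313), against 0.09 for the brighter one. That of Mbp, at a mean of 12.00, was at 0.11 ± 0.05 and did not pass (adjusted p = 0.179). The brighter Mbp probe set, at a mean of 12.97, was at 0.06 ± 0.03. Whether these probe sets read different transcripts was not tested.

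**Figure D3:**
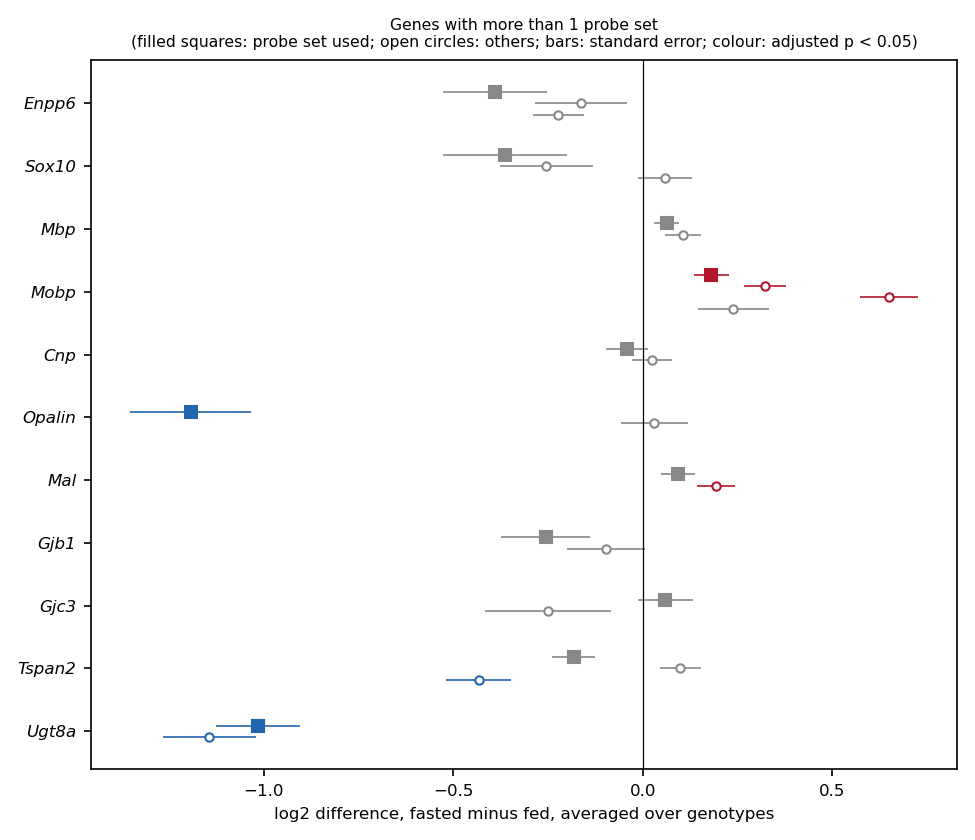
Averaged fasting difference of every probe set of the genes with more than 1, with standard errors; squares are the probe sets used elsewhere in the text. Both Ugt8a probe sets lie near -1, the 4 of Mobp lie between 0.18 and 0.65, and those of Opalin (-1.19 and 0.03) and Tspan2 (-0.43 to 0.10) are far apart.

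No gene of differentiating oligodendrocytes passed. Gpr17, a receptor of premyelinating cells, came nearest. It was at 7.79, 8.30, 8.01 and 8.12 (control fed), 7.74, 8.11 and 7.18 (control fasted), 7.99, 8.25, 8.07 and 7.79 (knockout fed) and 7.61, 7.08 and 7.85 (knockout fasted). The groups overlap, and the values of control fasted replicate 3 and knockout fasted replicate 2 are the lowest. The difference was -0.45 ± 0.15 with an adjusted p of 0.0783. Enpp6, a choline phosphodiesterase of newly formed oligodendrocytes, was at -0.39 ± 0.14 (adjusted p = 0.0935). It reached 6.07 on knockout fasted replicate 2 and lay between 6.70 and 7.13 on the other fasted arrays, against 6.91 to 7.49 on fed arrays. Bmp4, a ligand that holds precursors back from differentiation, was at 0.03 ± 0.11 at a mean of 4.72, near background.

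The transcription factors did not pass either. Sox10, which drives myelin genes, was at 9.13, 9.24, 9.18 and 9.10 (control fed), 8.70, 9.13 and 8.34 (control fasted), 9.30, 9.16, 9.20 and 9.17 (knockout fed) and 9.21, 8.17 and 9.38 (knockout fasted). The 8 fed arrays lie within 0.20, while the fasted arrays span 1.21, from below to above the fed range. The mean difference was -0.36 ± 0.16 (adjusted p = 0.182). Nkx6-2, a homeobox factor of maturing oligodendrocytes, had the same shape, with 6.07 on control fasted replicate 3 and 5.96 on knockout fasted replicate 2 against 6.72 to 7.25 on the other fasted and 6.71 to 7.28 on the fed arrays (-0.37 ± 0.18, adjusted p = 0.23). Olig1 and Olig2, which specify the lineage, were at -0.02 ± 0.04 and -0.11 ± 0.08 (adjusted p of 0.756 and 0.414).

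Of the precursor genes, Pdgfra, the receptor for the growth factor that keeps precursors dividing, was measured at a mean of 4.32, close to background. It was at 4.28, 4.10, 4.40 and 4.28 (control fed), 4.43, 4.51 and 4.36 (control fasted), 4.01, 4.27, 4.22 and 4.40 (knockout fed) and 4.24, 4.57 and 4.39 (knockout fasted). The groups overlap, and the difference of 0.17 ± 0.07 did not pass (adjusted p = 0.142). At this level RMA compresses differences.

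Fasted arrays varied more among themselves than fed arrays in most members. The 6 fasted arrays spanned a wider range than the 8 fed arrays in 22 of 30 members, which was so for 41.1% of all genes. Knockout fasted replicate 2 was lowest of the fasted arrays, ties included, in 7 of the 8 members that fell, and knockout fasted replicate 3 was highest in 7 of them. Without knockout fasted replicate 2, the differences of Opalin (-1.03), Ugt8a (-0.88) and Pllp (-0.65) were smaller and all 10 members still passed. Without that array the differences of members that had not passed were smaller by over 1.5 times in Sox10 (-0.18), Nkx6-2 (-0.18), Aspa (-0.05), Gal3st1 (-0.14) and Enpp6 (-0.25). The thalamus score of that array was -0.26, against -0.04 to 0.03 on the other fasted arrays, and its microglial score -0.35, against -0.31 to -0.04. The part of either in these values was not tested.

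**Figure D4:**
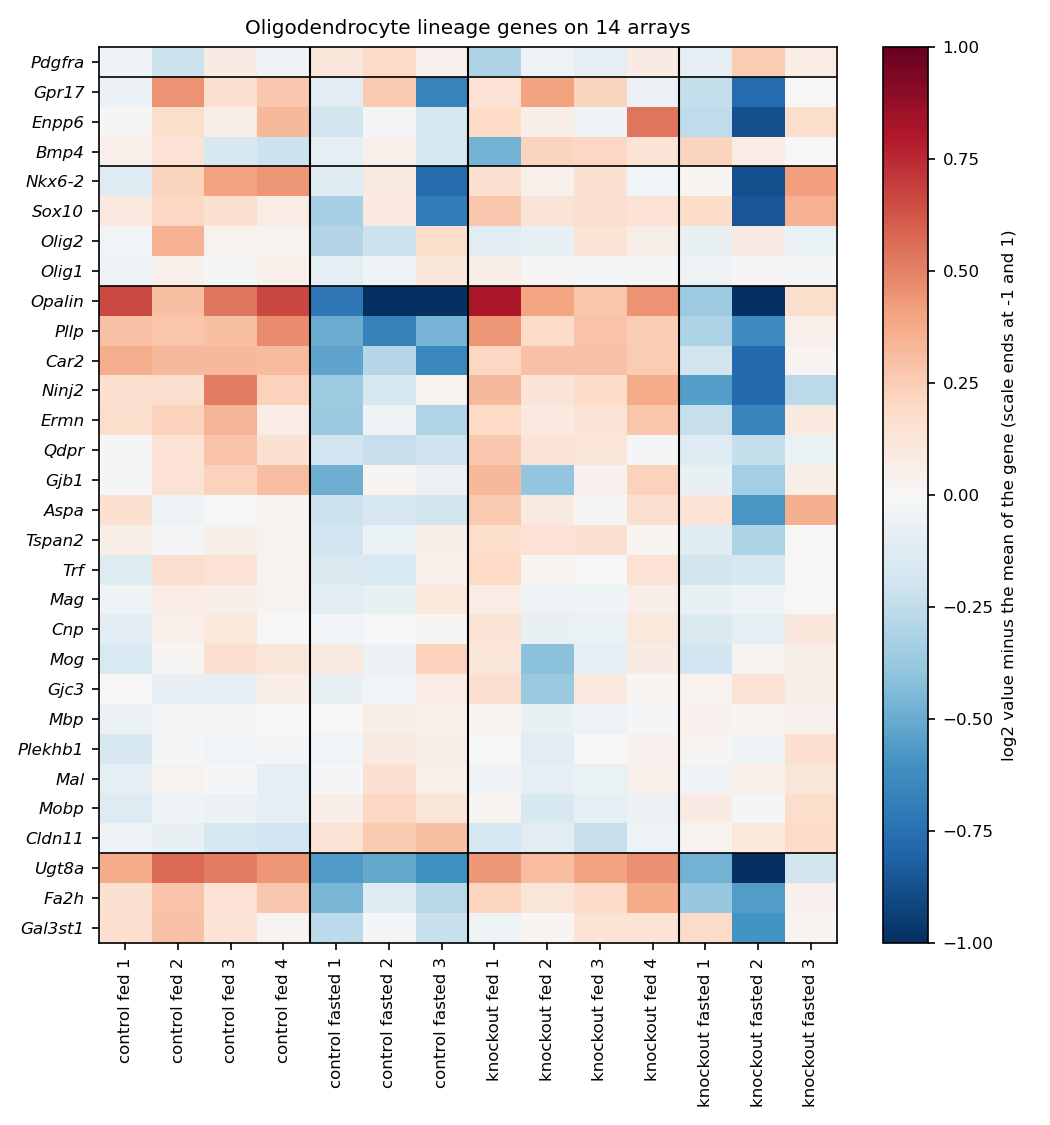
Log2 value minus the gene's mean for 30 genes (rows, by stage) on 14 arrays (columns, by group). The dark blue column is knockout fasted replicate 2, with Ugt8a at 9.10 and Sox10 at 8.17, and knockout fasted replicate 3 is nearest to the fed arrays.

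Knockout fed replicate 1 is the only fed array of the low number series. It is also 1 of the 8 fed arrays from which the calls were made, so its place above the fasted arrays in the members that fell follows in part from those calls and is a description only. It was nearer to the other knockout fed arrays than to the knockout fasted arrays in 9 of the 10 members that passed, against 83.6% of all 1715 genes that passed. Mobp was the exception, at 11.53. Within the low series, the mean of the 3 knockout fasted arrays minus this array was -1.24 for Opalin, -1.03 for Ugt8a, -0.74 for Pllp, -0.52 for Car2, -0.85 for Ninj2, -0.51 for Fa2h, -0.46 for Ermn and -0.42 for Qdpr, and 0.28 for Cldn11 and 0.05 for Mobp. With the series as a covariate, Opalin was at -1.58 ± 0.33, Ugt8a at -1.05 ± 0.24, Pllp at -0.91 ± 0.18 and Qdpr at -0.48 ± 0.11. Ninj2 was at -0.689 ± 0.195, Ermn at -0.469 ± 0.215, Car2 at -0.629 ± 0.219 and Fa2h at -0.495 ± 0.188. The falls of Car2 and Fa2h were smaller than without the covariate, and the others were larger. Cldn11 was at 0.335 ± 0.101 and Mobp at 0.06 ± 0.09. In that fit, where the series is separated from the fast by 1 array, 0 of the 10 members passed (adjusted p from 0.114 to 0.873), and 15 of all genes did.

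Each genotype was then taken alone. In control mice 7 of 30 members passed, against 2.76% of all genes, and 6 of them were lower, against 1.12%. Opalin fell by 1.48 ± 0.23, Ugt8a by 1.03 ± 0.16, Pllp by 0.88 ± 0.12, Car2 by 0.82 ± 0.14, Fa2h by 0.50 ± 0.12 and Qdpr by 0.35 ± 0.08, and Cldn11 rose by 0.35 ± 0.06 (adjusted p from 0.00254 to 0.0463). Without control fasted replicate 3 the count was 4 members and 216 of all genes, against 472 genes with all arrays. In knockout mice 2 of 30 passed, against 0.696% of all genes, both lower, against 0.228%. These were Ugt8a, at -0.997 ± 0.16 (adjusted p = 0.0132), and Ninj2, which fell by 0.78 ± 0.13 (adjusted p = 0.0139). Opalin was at -0.91 ± 0.23 there (adjusted p = 0.089), with its 3 fasted values 1.26 apart. The knockout count rested on single arrays, and the count over all genes moved with it. Without knockout fasted replicate 3 it was 9 members and 363 of all genes, without replicate 1 it was 1 member and 59 genes, and without replicate 2 it was 1 member and 18 genes, against 119 genes with all arrays.

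Whether the fasting response differs between genotypes was tested by the interaction in limma. There 0 of 30 members passed, against 0% of all genes. An unadjusted p under 0.05 was found for 0 members and for 654 of all 17097 genes. All 10 members called in the average have the same sign in both genotypes, and 29 of the 30 members do. The 10 were called from that average, which favours a shared sign, so this is a description only. The share of all genes with a shared sign was not counted. The fasting difference in knockout minus that in control mice was 0.57 for Opalin (95% interval -0.12 to 1.26), 0.30 for Pllp (-0.08 to 0.68) and 0.24 for Car2 (-0.19 to 0.67). For Ninj2 it was -0.35 (-0.74 to 0.03), and for Ugt8a 0.04 (-0.44 to 0.52). The median half-width of these intervals over the members was 0.37, which bounds the precision of these comparisons.

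**Figure D5:**
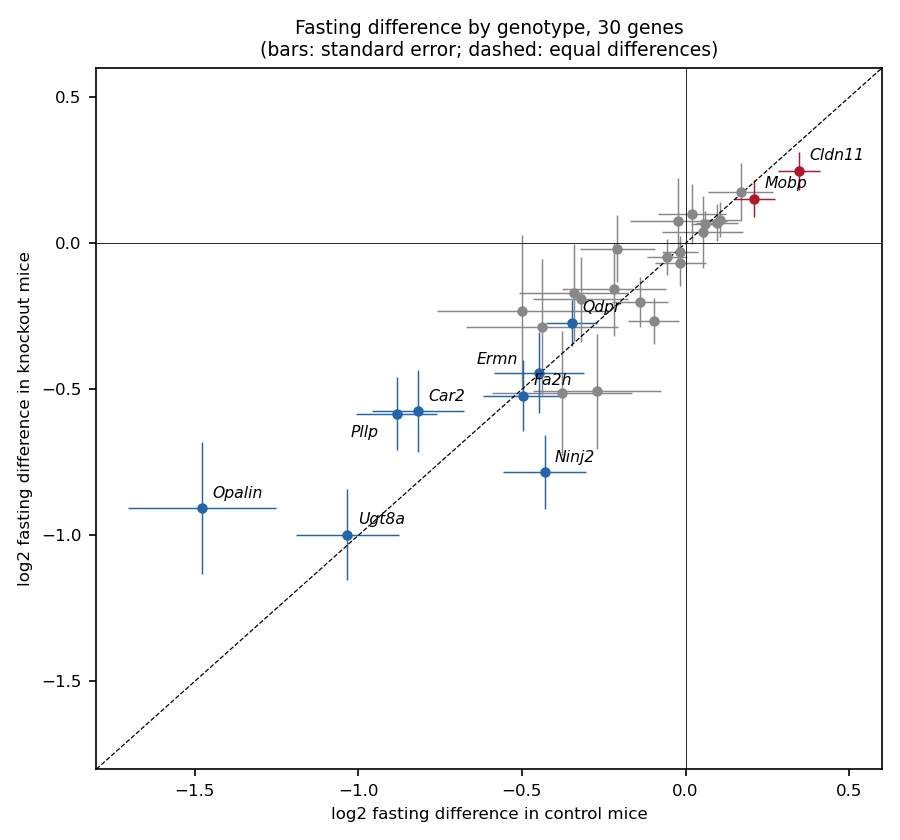
Log2 fasting difference in control mice (horizontal axis) and in knockout mice (vertical axis) of the 30 genes, with standard errors and the line of equal differences. Ugt8a (-1.03 and -0.997) lies on the line, Opalin (-1.48 and -0.91) above it and Ninj2 (-0.43 and -0.78) below it, and none of these departures passed the interaction test.

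No difference between genotypes was detected in these genes. Between knockout fed and control fed mice, 0 of 30 members passed in limma, against 0.00585% of all genes. An unadjusted p under 0.05 was found for 0 members and for 790 of all 17097 genes. The differences ran from -0.15 (Nkx6-2) to 0.10 (Aspa), with a median of -0.015 and a median half-width of the 95% interval of 0.24. Mbp was at -0.01 (-0.10 to 0.08) and Ugt8a at -0.07 (-0.38 to 0.24). Between the fasted groups 0 of 30 members passed, against 0% of all genes. Of the members, 1 had an unadjusted p under 0.05, a share no higher than that of all genes (661 of 17097). That member, named after its value was seen, was Ninj2 at -0.37 ± 0.14, with knockout fasted arrays at 4.51 to 5.02 and control fasted arrays at 4.93 to 5.32. Opalin was at 0.52 ± 0.24. Averaged over feeding states, 0 of 30 passed, against 0.00585% of all genes, with differences from -0.19 to 0.23. There 1 unadjusted p was under 0.05, again that of Ninj2, a share no higher than that of all genes (795 of 17097).

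Further genes of the lineage were taken from lists of known function, and their counts stand beside 5.14% of all genes higher and 4.90% lower after the fast. Of 30 other mature myelin genes 4 rose and 6 fell, with a median of -0.02. Hapln2, a link protein of the nodes of Ranvier, rose by 0.78 ± 0.10 (adjusted p = 0.000439), Dbndd2 by 0.60 ± 0.07 (adjusted p = 0.000386) and Apod, a lipid carrier, by 0.59 ± 0.06 (adjusted p = 0.000121). All 3 had every fasted array above every fed array. The tetraspanin Cd9 fell by 0.32 ± 0.05 (adjusted p = 0.00188).

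Of 16 other genes of myelin lipids 2 rose and 2 fell. Gpd1, a glycerol phosphate dehydrogenase enriched in oligodendrocytes, rose by 0.88 ± 0.16 (adjusted p = 0.00534), and Sgms1, a sphingomyelin synthase, by 0.21 ± 0.04 (adjusted p = 0.013). Sptlc2, a subunit of the first enzyme of sphingolipid synthesis, fell by 0.27 ± 0.08 (adjusted p = 0.0466), and the desaturase gene Fads2 fell by 0.20 ± 0.04 (adjusted p = 0.00707).

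Of 13 other precursor genes 2 rose and 3 fell. Sox6, a factor that holds precursors undifferentiated, fell by 0.46 ± 0.07 (adjusted p = 0.00174) and Cspg5 by 0.17 ± 0.04 (adjusted p = 0.0116), while the proteoglycan gene Vcan rose by 0.37 ± 0.09 (adjusted p = 0.0237) and Sulf2 by 0.21 ± 0.05 (adjusted p = 0.0227). Of 12 other differentiation genes 2 rose and 1 fell, among them Tns3, a tensin of newly formed oligodendrocytes, which rose by 0.39 ± 0.04 (adjusted p = 0.000262), and Itpr2, which rose by 0.26 ± 0.08 (adjusted p = 0.0466). Chn2 fell by 0.25 ± 0.04 (adjusted p = 0.00203). Of 23 signals and receptors 1 rose, a share no higher than that of all genes, and 4 fell. Lpar1, a lysophosphatidic acid receptor of myelinating cells, fell by 0.51 ± 0.08 (adjusted p = 0.00239), the growth factor receptor Fgfr2 by 0.47 ± 0.12 (adjusted p = 0.0216) and the Notch target Hes5 by 0.56 ± 0.14 (adjusted p = 0.0223). Id2, an inhibitor of differentiation, rose by 0.36 ± 0.09 (adjusted p = 0.0251). Hes5 and Id2 are also expressed by astrocytes.

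Some markers of other cells moved with the fast as well, and their counts stand beside 5.14% of all genes higher and 4.90% lower. Of 11 microglial markers 6 fell and 0 rose, and their mean log2 level was 7.61 to 7.87 on fed and 7.25 to 7.57 on fasted arrays. Ly86 fell by 0.90 ± 0.07 and P2ry12 by 0.77 ± 0.10. C1qa was at -0.01 ± 0.06, and C1qb (0.13 ± 0.11) and C1qc (0.09 ± 0.11) had a positive difference that did not pass. Of 11 astrocyte markers 4 rose and 1 fell, with mean levels of 9.53 to 9.61 (fed) and 9.66 to 9.87 (fasted). Agt rose by 0.56 ± 0.05 and Fgfr3 by 0.60 ± 0.05, while Aqp4 fell by 0.36 ± 0.06. Of 6 mural cell markers 2 fell, with mean levels of 7.04 to 7.26 (fed) and 6.90 to 7.02 (fasted). None of the 14 neuronal markers passed, and their mean levels were 10.95 to 11.04 (fed) and 10.91 to 11.02 (fasted). None of 3 Schwann cell, 8 meningeal fibroblast, 13 choroid plexus, 7 ependymal or 5 pituitary markers passed. Of 7 endothelial markers 1 rose and 1 fell, of 11 hypothalamic markers 1 rose (Npy), and of 6 thalamus markers 1 fell (Lef1), with mean levels of 9.25 to 9.49 (fed) and 9.10 to 9.40 (fasted). Of 7 cortex and hippocampus markers 1 fell (Prox1), but all 7 had a negative difference, with a median of -0.24. Their mean levels were 6.13 to 7.03 (fed) and 5.95 to 6.18 (fasted), and Mef2c, at -0.53 ± 0.17, had every fasted array below every fed array without passing (adjusted p = 0.063). No marker list held a gene at 0, as RMA gives every probe set a value. The part of other cell types, or of neighbouring regions in the dissected tissue, in the members' differences was not tested.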

How the data were processed

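The deposited values are log2 expression of 14 arrays, for which the submitters' processing notes name RMA and affy. RMA corrects background, sets arrays to a common distribution and summarises probes, so differences of dim probe sets are compressed. Which genome build the annotation follows was not given in the sources used here. No value was renormalised.

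Of 45141 probe sets, 28898 name 1 gene, 551 several and 15692 none. Each of 17097 genes was represented by its probe set with the highest mean. limma 3.58.1 in R 4.3.3 fitted 1 coefficient per group over 14 arrays (residual degrees of freedom 10, prior 3.27). Tests were two-sided, with Benjamini-Hochberg adjustment over all genes and a threshold of 0.05. Intervals are 95%. The number of arrays limits the precision. The pipeline was tested on simulated data.

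The members and lists were chosen with earlier results of these data known. The 13 members with values on every array are those that passed and the member with the smallest p of each stage. The others are given by ranges and counts. Of each further list, up to 4 genes with the smallest p were named, plus cell type markers. Alternatives were dropping the dimmest 40% of genes, averaging a gene's probe sets, a trended and robust prior, array weights, median centring, 3 covariates, only the groups compared, and leaving out each array.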

Additional observations from a re-analysis of the deposited data

Results flagged for a closer look

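Each of the 30 members gives a set of 4 values in control fed and in knockout fed arrays, 60 sets in all. In 4 of the 60 sets 1 array lay far from the other 3, where chance gives about 1 in 20. That count is near the chance rate, and the sets share arrays. Bmp4 was at 4.24 on knockout fed replicate 1, against 4.85 to 4.94 on the other knockout fed arrays. Olig2 was at 8.46 on control fed replicate 2, against 8.09 to 8.15. Pllp was at 9.55 on control fed replicate 4, against 9.35 to 9.38. Plekhb1 was at 11.69 on control fed replicate 1, against 11.82 to 11.84.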

How the results depend on the processing

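Of the 30 members, 10 passed for the averaged fasting difference. The count was 10 to 13 when each array was left out in turn and 9 to 12 under the other alternatives, except 0 with the number series as a covariate. In control mice (7 members) it was 4 to 8 without 1 array and 0 with that covariate. In knockout mice (2 members) it was 1 to 9 without 1 array, 4 without the dimmest 40% of genes, 6 under a trended, robust prior, 4 with array weights, 0 with the number series and 0 with only the groups compared. For both genotype contrasts, their average and the interaction the count was 0 throughout.

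Opalin, Ugt8a, Pllp, Car2, Ninj2, Fa2h, Ermn, Qdpr and Cldn11 passed in 22 of 23 alternatives and Mobp in 20. Signs turned only in members that had not passed. These were Bmp4 with the choroid plexus score (-0.005) and without single arrays (-0.056 to 0.060), Olig2 (0.02), Mog (-0.18) and Gjc3 (-0.16) with the number series, Mog without single arrays (-0.011 to 0.085), and Gjc3 with the mean of its probe sets (-0.095). Leaving out control fed replicate 1 and knockout fed replicate 4 together, chosen after seeing the data, gave 9. The cause of these shifts was not tested, and the fits without 1 array have fewer samples. No paired analysis was possible because the numbers in the titles are all different.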
